A study of Homo sapiens with 24 samples.

Results

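The comparison described here is that of the atrial and the ventricular protocol in cells targeted at ZNF711, which takes 6 of the 24 RNA sequencing libraries of the study, 3 from each protocol. They were chosen by their labels alone, AM ZNF711 and VM ZNF711 with replicate numbers 1, 2 and 3, and every gene of the table was examined. All libraries came from HES3, a human embryonic stem cell line that carried a GFP reporter at NKX2-5 and an mCherry reporter at NR2F2, so that the NR2F2 locus was modified in every group. The cells were targeted by CRISPR-Cas9 at ZNF711, or at LHX2, ZNF503 or the control gene TRAC in the other groups, and there was no group without a target. They were differentiated toward heart muscle as embryoid bodies with a protocol that modulates WNT signalling, for at most 14 days. The labels do not spell out AM and VM, here taken to stand for atrial and ventricular, of which the atrial condition received retinoic acid at day 4. Whether the targeted cells were 1 clone or a pool, whether they were sorted on a reporter, and whether the replicates were separate differentiations was not stated. The p values therefore measure only the spread between libraries of a group, estimated over all 24 libraries of the study. With 3 libraries a group, an exact permutation test of a single value cannot go below p = 0.1, so adjusted p values come from edgeR fits across all genes.

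During heart formation retinoic acid directs part of the early heart muscle toward an atrial fate. The nuclear receptors NR2F1 and NR2F2 maintain that fate, whereas IRX4 and HEY2 are transcription factors of ventricular muscle. Atrial cells use the fast myosin MYH6, potassium channels such as KCNA5 and KCNJ3, and the atrial connexin. Ventricular cells use MYL2 and, with maturation, MYH7. ZNF711 is an X-linked zinc finger protein of the ZFX family that binds promoters and is known from X-linked intellectual disability. NELL2 is a secreted glycoprotein that binds ROBO receptors and is found in atrial muscle.

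The 6 libraries held 3855267 to 5618223 counts, within the 2899786 to 7438010 of the whole study. Of 62757 genes in the table, 17724 had enough counts to be tested, and a gene was called where the adjusted p was below 0.05. Levels are given as CPM, the usual normalisation of a gene's counts to the size of its library, with library sizes scaled between libraries. RNA of the targeted gene stood at 55.8, 41.1 and 31.2 CPM with the atrial protocol and 32.9, 33.9 and 25.9 CPM with the ventricular one. The protocols overlapped in ZNF711 and it was not called between them (log2 fold change 0.47 ± 0.19 SE, adjusted p = 0.113). Against TRAC, ZNF711 RNA was lower by 0.34 on the log2 scale in AM (adjusted p = 1) and by 0.37 in VM (adjusted p = 0.567), which were not calls. Counts over the whole gene do not read the edited site, so this level checks neither the edit nor the labels. Principal component analysis placed the 2 protocols apart on the first component (63.9% of the variance of 1000 genes). On the second (14.6%), the 3 VM ZNF711 libraries lay at 14.8, 23.9 and 31.4, near VM replicate 3 of LHX2, ZNF503 and TRAC at 3.5, 18.6 and 27.7. VM replicates 1 and 2 of those genotypes lay at -33.2 to -23.1. VM replicate 3 of the 3 other genotypes therefore stood apart from its own group and on the side of VM ZNF711.

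The labels give the cells as cardiomyocytes. Sarcomere genes were abundant in all 6 libraries, with a summed level of 18600 to 24400 CPM over 24 genes in AM and 11700 to 15900 CPM in VM. Markers of yolk sac and liver-type endoderm were present too. Their 26 genes summed to 1790, 1720 and 3140 CPM in AM replicates 1 to 3 and to 16700, 29500 and 41400 CPM in VM, with every VM library above every AM library. All 26 had a count in VM, and 1 had none in AM. In VM TRAC the same sum was 6030, 4950 and 39600 CPM. Of 10 blood markers, 6 had no count in AM and 5 had none in VM, and the list summed to 15.0 to 21.6 CPM. In such bulk libraries fewer cells of a type and less RNA per cell cannot be told apart, which holds for every cell type list below.

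**Figure D1:**
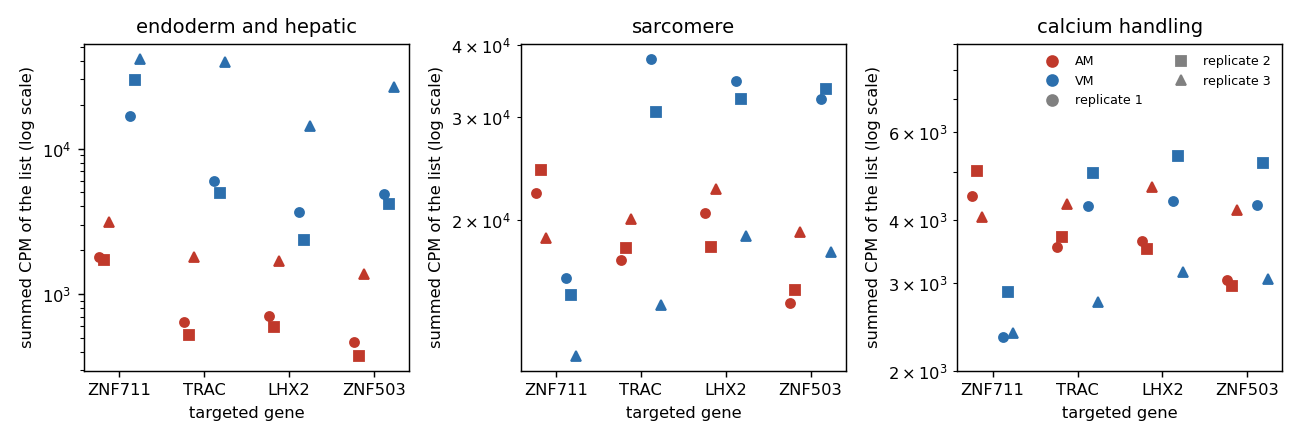
Summed CPM (log scale) of the endoderm and hepatic, sarcomere and calcium handling lists in each of the 24 libraries, by targeted gene, with AM in red, VM in blue and symbols for the replicate number. In ZNF711-targeted cells the endoderm sum is 1720 to 3140 in AM and 16700 to 41400 in VM, and VM replicate 3 of the other genotypes lies near VM ZNF711 in all 3 panels.

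Between the protocols, 2345 of 17724 genes were called in ZNF711-targeted cells, 13.2% of those tested. Of these, 1207 were higher in AM (6.81%) and 1138 were lower (6.42%), and 676 and 658 of them differed at least 2-fold. Samples with the same replicate number deviated together, and a fit with the number as a block called 4150 genes (23.4%), 2024 higher (11.4%) and 2126 lower (12%), among them all 2345. Without VM replicate 3, 1331 genes were called, without AM replicate 2 1356, without VM replicate 2 1525, and without AM replicate 3 1586. In the TRAC control 2003 genes were called (11.3%), 6.18% of all tested genes higher and 5.12% lower. In LHX2-targeted cells the shares were 8.56% in all, 4.68% higher and 3.88% lower, and in ZNF503-targeted cells 8.86%, 4.77% and 4.10%. The 2 lists shared 1127 genes, 48.1% of the ZNF711 list and 56.3% of the TRAC list, and all 1127 had the same direction.

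Genes were named for the size of the fitted rise in AM, which for a gene with no count in VM is not a measured size. One such gene was HOXA3, a homeobox gene that patterns the anterior-posterior axis under retinoic acid. HOXA3 (chromosome 7, 27107010 to 27152583, RefSeq on GRCh38.p14) stood at 14.7, 15.7 and 13.5 CPM in AM replicates 1 to 3 and had no count in VM, at least 19.8-fold higher against a floor of 3 counts per library. Such a floor covers counting error only. SHOX2, a transcription factor of the sinus node and inflow tract, was at 125, 179 and 139 CPM against 1.24, 0.752 and 3.97 CPM in VM (log2 fold change 6.2 ± 0.65 SE, adjusted p = 4.08e-06). MYH11, the myosin heavy chain of smooth muscle, was at 150, 280 and 234 CPM against 5.19, 3.76 and 2.51 CPM (5.87 ± 0.57, adjusted p = 1.6e-06). That the protocols do not overlap in these 3 genes was a condition of naming them.

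A further 8 genes named by size of rise joined cell adhesion, muscle and enzyme genes. Adhesion was represented by the cadherins CDH4 (log2 fold change 4.82) and CDH12, with CDH12 at 17.6 to 25.5 CPM in AM and at most 0.209 CPM in VM. LRRTM3, a synaptic leucine-rich repeat protein, stood at 36.2 to 43.7 CPM in AM and at most 0.247 CPM in VM. MYOM2, an M-band protein of mature sarcomeres, was at 31.5, 38.7 and 29.4 CPM in AM against 1.24, 1.13 and 0.209 CPM in VM (5.25 ± 0.42 SE, adjusted p = 5.73e-09). DHRS9, a dehydrogenase that can oxidise retinol, rose by 5.03 on the log2 scale. The transcription cofactor DACH2 rose by 4.84, the silent potassium channel subunit KCNV1 by 4.78 and the immune checkpoint ligand VTCN1 by 5.48. These calls held in each of the 6 fits that left out 1 ZNF711 library.

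The 12 named genes with the largest fall in AM were mostly secreted proteins and transporters of liver and yolk sac endoderm. ITIH2, a plasma protein that binds hyaluronan, was at 38.6, 60.6 and 51.2 CPM in VM and had no count in AM, at least 64.2-fold lower. AHSG, which encodes fetuin A, was at 1040, 1960 and 2620 CPM in VM and 6.14, 3.02 and 26.8 CPM in AM (log2 fold change -7.34 ± 1.45 SE, adjusted p = 0.003). The apolipoproteins APOC3 and APOA4 differed by -7.23 and -7.16, the iron carrier TF by -6.73, and ALB, which encodes albumin, by -6.2. Others were the steroid carrier SERPINA6 (18.5 to 44.7 CPM in VM, at most 0.781 in AM), the retinol carrier RBP2 (-6.65) and the organic anion transporter SLC22A7 (-6.02). FETUB and MS4A10 stood at 12.6 to 31.8 and at 16.8 to 55 CPM in VM, with 0.409 and 0.52 CPM as their highest AM values. COL5A3, a fibrillar collagen chain, was the exception in kind, at 15.3, 20.7 and 16.7 CPM in VM and at most 0.52 CPM in AM (adjusted p = 2.25e-05). APOA4 was not called without AM replicate 1 or 2 (adjusted p up to 0.0565). Among the fits without 1 ZNF711 library, FETUB kept its call only in that without VM replicate 1. It lost the call when AM replicate 1, 2 or 3 or VM replicate 2 or 3 was left out (up to 0.0965).

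**Figure D2:**
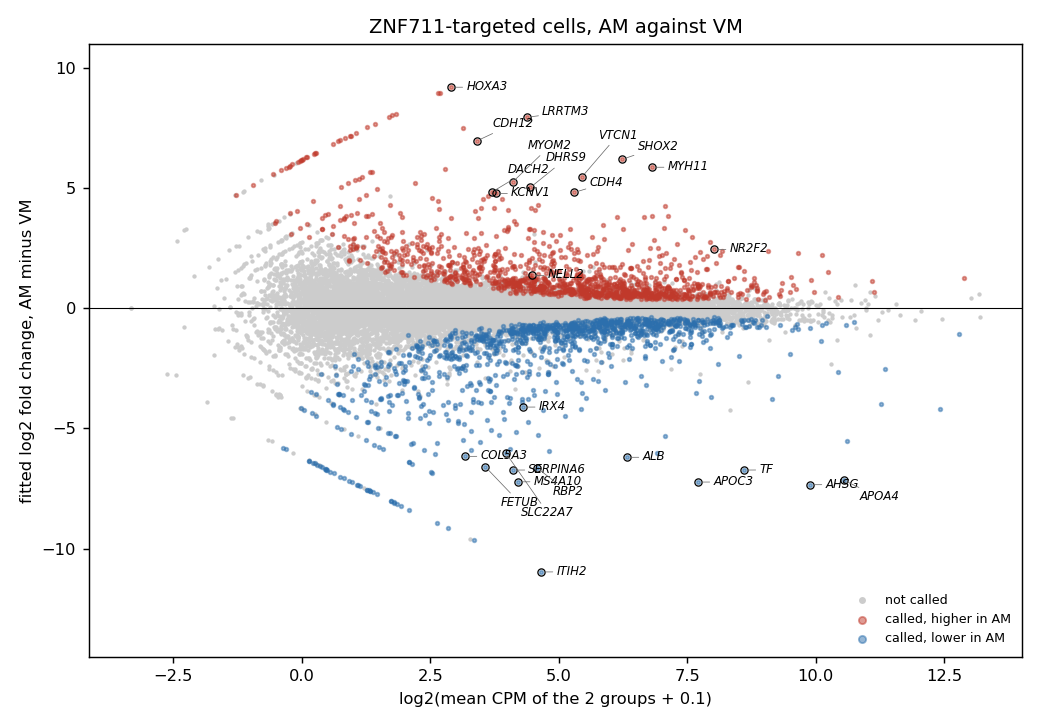
Fitted log2 fold change (AM minus VM) of every tested gene in ZNF711-targeted cells against its mean level, as log2(mean CPM + 0.1). The 1207 genes called higher in AM are red, the 1138 called lower are blue, and the genes named for the size of their change and the 3 markers are ringed, with HOXA3 highest and ITIH2 lowest among the ringed genes, both of which had no count in 1 group.

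The 3 markers all differed between the protocols in the direction that atrial (NR2F2, NELL2) or ventricular (IRX4) marks would give. NR2F2 (chromosome 15, 96326046 to 96340263) was at 383, 474 and 459 CPM in AM and 78.1, 76.4 and 85.9 CPM in VM, means of 439 ± 49.0 and 80.1 ± 5.06 (SD, n = 3). Its log2 fold change was 2.45 ± 0.28 SE (adjusted p = 4.28e-06). IRX4 (chromosome 5, 1877413 to 1887179) was at 2.66, 1.21 and 2.60 CPM in AM and 39.1, 49.7 and 22.8 CPM in VM (-4.11 ± 0.62 SE, adjusted p = 0.000204). NELL2 (chromosome 12, 44508275 to 44921848) was at 27.8, 39.3 and 29.1 CPM in AM and 15.1, 12.8 and 9.40 CPM in VM (1.37 ± 0.25 SE, adjusted p = 0.000558). The groups did not overlap in any of the 3 genes, as in 32.9% of all tested genes.

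The protocol effect on NELL2 differed between ZNF711-targeted cells and the control. In TRAC it was at 27.8, 37.9 and 34.1 CPM in AM and 1.23, 1.03 and 1.04 CPM in VM, a log2 fold change of 4.89. In VM the ZNF711 libraries, at 9.40 to 15.1 CPM, lay above every VM library of TRAC (1.03 to 1.23), LHX2 (0.94 to 1.80) and ZNF503 (0.613 to 1.93). In AM the ZNF711 range of 27.8 to 39.3 CPM overlapped that of TRAC. The difference between the 2 protocol effects (the interaction) was -3.52 in log2 (adjusted p = 0.000104), and it was the only one of 17724 genes called against TRAC without the block (0.00564%), whereas the fit with the block called 5, named with the interactions. NR2F2 was at 18.9, 22.7 and 49.2 CPM in VM TRAC and 411 to 514 CPM in AM TRAC (log2 fold change 3.91). The interaction of NR2F2 was -1.46 against TRAC (adjusted p = 0.459) and -1.32 against the mean of the 3 other genotypes (adjusted p = 0.0957, or 0.0125 with the replicate block). IRX4 was at 118, 178 and 46.6 CPM in VM TRAC, and its interaction of 2.11 was not called (adjusted p = 0.767).

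**Figure D3:**
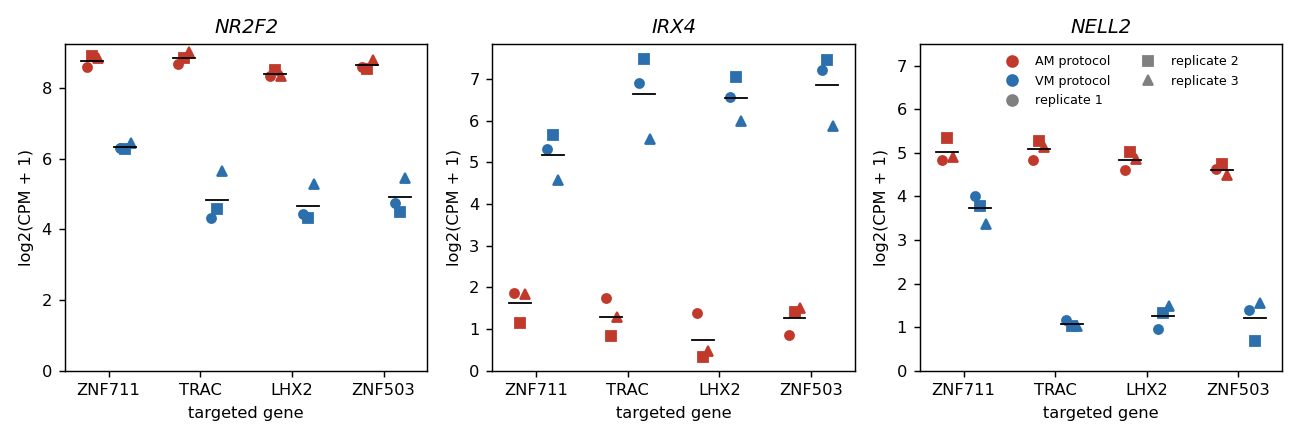
Levels of NR2F2, IRX4 and NELL2 as log2(CPM + 1) in the 24 libraries, by targeted gene, with AM in red, VM in blue, a symbol for each replicate number and a line at the mean of the 3 libraries. NELL2 in VM ZNF711 (9.40 to 15.1 CPM) lies above VM of every other genotype (0.613 to 1.93 CPM), and VM replicate 3 is the highest VM library for NR2F2 in each genotype.

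Of 16 genes of atrial identity, 10 were called higher in AM and the other 6 were not called, with a median log2 fold change of 1.37 against 0.00 over all tested genes. Beside this and every later list, 6.81% of all tested genes were called higher and 6.42% lower. Where a list is counted with the block, the shares beside it are 11.4% higher and 12% lower. NR2F1, the paralogue of NR2F2, was at 127, 156 and 129 CPM in AM and 13.1, 19.2 and 8.99 CPM in VM (3.31 ± 0.60 SE, adjusted p = 0.00139). TBX5, the T-box factor of the posterior heart, rose by 1.97, and HEY1, the Notch target of atrial muscle, by 1.36. Among ion channels, KCNJ3 (acetylcholine-activated potassium current) rose by 3.29, CACNA1D (L-type calcium current) by 2.30 and KCNA5 (ultrarapid potassium current) by 1.95. MYBPHL, an atrial myosin-binding protein, was at 15.5, 24 and 20 CPM in AM and 1.24, 0.376 and 2.72 CPM in VM (3.77 ± 0.53 SE, adjusted p = 2.35e-05). In these genes every AM library lay above every VM library, which held for 16.5% of all tested genes. They were picked among called genes, of which 2301 of 2345 did not overlap between the protocols, so this adds nothing to their calls.

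MYH6, the fast atrial myosin, was at 11500, 12200 and 8440 CPM in AM and 5130, 4880 and 3300 CPM in VM (1.27 ± 0.36 SE, adjusted p = 0.0205), but the call was lost without AM replicate 1 or 2 or VM replicate 2 or 3 (adjusted p up to 0.11). MYL7, the atrial light chain, was at 834 to 1150 CPM in AM and 781 to 916 CPM in VM and was not called (0.26 ± 0.33 SE, adjusted p = 0.678). NPPA, which encodes atrial natriuretic peptide, was low, at 13.8 to 21.5 CPM in AM and 13.8 to 23.2 CPM in VM. In TRAC the log2 fold change of MYH6 was -0.38 and that of MYL7 -1.01, neither of them called.

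Of 13 ventricular genes, 4 were called lower in AM, 1 was called higher, and the median was -0.57. HEY2, the Notch target of compact ventricular muscle, was at 1.43, 5.64 and 5.20 CPM in AM and 29.2, 32.4 and 20.5 CPM in VM (-2.75 ± 0.42 SE, adjusted p = 0.000108). MYL2, the ventricular regulatory light chain, had no count in AM and only 2.47, 4.33 and 3.13 CPM in VM, at least 4.24-fold lower in AM. MYH7, the slow myosin, was at 62.6, 129 and 82.5 CPM in AM and 446, 552 and 367 CPM in VM (-2.31 ± 0.52 SE, adjusted p = 0.00684). FHL2, a LIM protein of the sarcomere, was at 31.7 to 36.2 CPM in AM and 45.8 to 69.2 CPM in VM (adjusted p = 0.0533, or 0.0206 with the block). KCNJ2, which carries the inward rectifier current and is usually stronger in ventricle, went the other way, at 35.2, 43.3 and 58.8 CPM in AM and 10.6, 13.4 and 15.9 CPM in VM (1.77 ± 0.25 SE, adjusted p = 2.91e-05).

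Of 24 sarcomere genes 6 were called higher in AM and 1 lower, with a median of 0.41, and 17 were not called. Of 12 calcium handling genes 3 were called higher and 9 were not called, with a median of 0.23 that fell to 0.13 without AM replicate 1 and to 0.11 without VM replicate 3. ATP2A2, the calcium pump of the sarcoplasmic reticulum, was at 1660, 2020 and 1650 CPM in AM and 589, 691 and 573 CPM in VM (1.52 ± 0.18 SE, adjusted p = 3.2e-06). HRC, a calcium-binding protein of the same store, rose by 1.21. TNNI3, the adult cardiac troponin I, was at 7.77, 9.66 and 7.03 CPM against 1.48, 1.13 and 2.09 CPM (2.37 ± 0.47 SE, adjusted p = 0.00128). MYPN, which anchors filaments at the Z-disc, rose by 2.05.

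Several abundant filament genes lost their call when certain libraries were left out, and the 6 sarcomere calls fell to 3 without VM replicate 3. ACTC1, cardiac actin, was at 2610, 3240 and 3150 CPM in AM and 1100, 1600 and 1370 CPM in VM (1.14 ± 0.31 SE, adjusted p = 0.0152), and was not called without AM replicate 2 or VM replicate 1 or 3 (adjusted p up to 0.0598). TPM1 (0.70) and MYOM1 (1.28) were not called without VM replicate 3 (adjusted p = 0.0681 and 0.0556), and RYR2 (1.31), the calcium release channel, was not called without AM replicate 1 or 2 or VM replicate 2 or 3 (up to 0.121). TTN, which encodes titin, was at 8630 to 13200 CPM in AM and 5570 to 9250 CPM in VM and was not called (adjusted p = 0.319). TNNT2, cardiac troponin T, was called only with the block (1.10 ± 0.54 SE, adjusted p = 0.199 without it and 0.00364 with it). MYOZ2, a Z-disc protein of slow fibres, was the member that fell, at 5.93 to 17.7 CPM in AM and 30.9 to 71.1 CPM in VM, and its call was lost without AM replicate 1 or 2 or VM replicate 2 (up to 0.0683).

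In the TRAC control the medians of these lists were below 0. The median of the sarcomere list was -0.48 in TRAC, where 2 genes were called higher and 7 lower, and that of calcium handling was -0.35. The interaction with TRAC was positive for 24 of 24 sarcomere genes (0.47 to 1.75), 12 of 12 calcium handling genes and 11 of 11 cardiac transcription factors, against 9198 of 17724 tested genes (51.9%). With the block, 9 sarcomere, 2 calcium handling and 8 transcription factor genes were called against the mean of the 3 other genotypes, all positive, where 1.46% of tested genes were called in that direction. Without the block no member of the 3 lists was called in edgeR, where 2024 genes of all those tested had an unadjusted p below 0.05 and DESeq2 called 277. The summed sarcomere level in VM TRAC was 37800, 30600 and 14300 CPM in replicates 1 to 3, so that only replicate 3 lay within the VM ZNF711 range of 11700 to 15900. The endoderm sum of VM TRAC was 6030, 4950 and 39600 CPM, highest in the replicate with the lowest sarcomere sum. The part of endoderm RNA in these differences was not tested.

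Of 11 cardiac transcription factors, 4 were called higher in AM and the median was 0.58. GATA6 rose from 41.8, 58.5 and 57.9 CPM in VM to 164, 231 and 193 CPM in AM (1.89 ± 0.22 SE, adjusted p = 1.46e-06). GATA4 rose by 0.89 and MEF2C, the myocyte enhancer factor, by 1.17. MYOCD, the coactivator of SRF, rose by 0.70 and was not called without AM replicate 1 or 2 or VM replicate 1 or 3 (adjusted p up to 0.0907). NKX2-5, the core factor whose locus carried the GFP reporter, was at 134, 176 and 146 CPM in AM and 81.6, 116 and 108 CPM in VM. It was not called (0.58 ± 0.25 SE, adjusted p = 0.136), whereas in TRAC it was called lower in AM (-0.96, adjusted p = 0.0134). Its interaction was 1.54 against TRAC (adjusted p = 0.389) and 1.44 against the mean of 3 (adjusted p = 0.0702, or 0.00868 with the block). TBX20, a T-box factor of chamber muscle, was lower by 2.47 in AM of TRAC and had a log2 fold change of -0.71 here, not a call (adjusted p = 0.135).

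**Figure D4:**
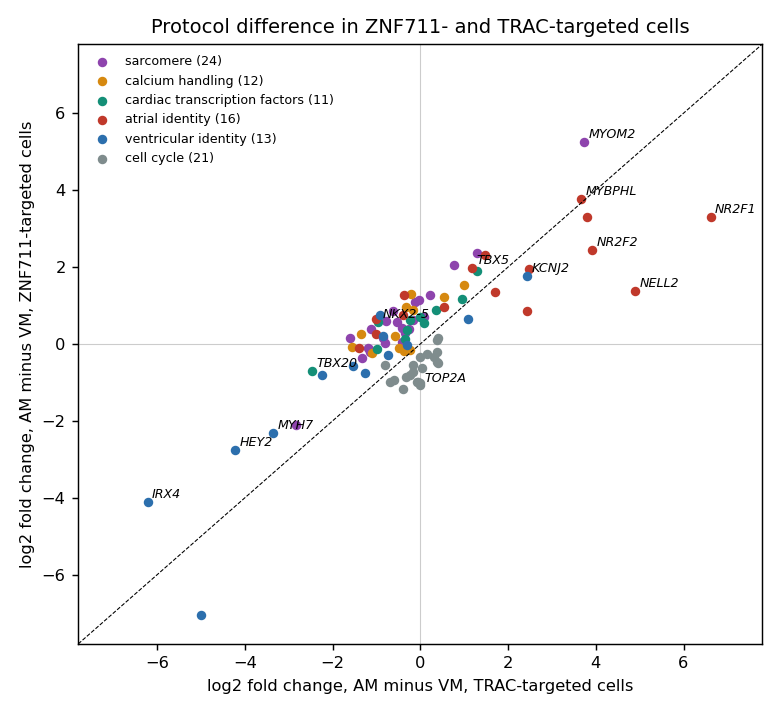
Fitted log2 fold change (AM minus VM) of the tested members of 6 lists in TRAC-targeted cells (x axis) and ZNF711-targeted cells (y axis), where the dashed line marks equal values. All 24 sarcomere, 12 calcium handling and 11 cardiac transcription factor genes lie above the line and 20 of the 21 cell cycle genes lie below it, with NELL2, NR2F1 and NR2F2 farthest below among atrial genes.

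Of 14 sinus node and inflow genes, 7 were called higher in AM and 1 lower, with a median of 0.60. The genes called higher included SHOX2 and ISL1, a factor of progenitors and pacemaker cells, with ISL1 at 105, 163 and 118 CPM in AM and 34.4, 35.6 and 52.4 CPM in VM (1.66 ± 0.26 SE, adjusted p = 0.000112). The T-type calcium channel CACNA1G rose by 2.95, the calcium sensor VSNL1 by 3.01 and the G protein regulator RGS6 by 2.04. HCN4, which carries the pacemaker current, was at 433, 459 and 409 CPM in AM and 170, 241 and 174 CPM in VM (1.15 ± 0.31 SE, adjusted p = 0.0176). It was not called without AM replicate 2 or VM replicate 1 or 3 (up to 0.0818). TBX2, a repressor of chamber genes, was at 41.6 to 63.2 CPM in AM and 78.9 to 92.2 CPM in VM, and its call (adjusted p = 0.0295) was kept in only 1 of the 6 fits without a library, that without AM replicate 1 (up to 0.13 in the others).

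Among 11 potassium and sodium channel genes 3 were called higher and 1 lower. KCNIP2, a subunit of the transient outward current, was at 345, 402 and 283 CPM in AM and 48.5, 40.1 and 42.6 CPM in VM (2.98 ± 0.36 SE, adjusted p = 1.16e-05). Its pore-forming partner KCND3 moved in the opposite direction, at 0.614, 0.805 and 0.781 CPM in AM and 6.92, 6.21 and 6.27 CPM in VM (-3.10 ± 0.82 SE, adjusted p = 0.0126), and was not called without AM replicate 1 or 2 (up to 0.0526). The rapid rectifier KCNH2 (0.57) was called in only 1 of the 6 fits that left out a library, that without AM replicate 3 (up to 0.167 in the others). In the natriuretic peptide system, the clearance receptor NPR3 rose by 1.12 (adjusted p = 0.000702) and the other 6 genes were not called.

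Retinoic acid acts through receptors that bind direct repeats of a half-site, and its own degradation is induced by it. Of 17 genes of the pathway, 3 were called higher in AM and 4 lower. The homeobox cofactors MEIS2 and MEIS1 rose by 1.52 and 1.39. Of the CYP26 enzymes, which degrade retinoic acid, CYP26A1 and CYP26C1 were called lower and CYP26B1 was not called (1.45 ± 0.82 SE, adjusted p = 0.268). CYP26C1 was at 1.23, 0.805 and 0.52 CPM in AM and 73.0, 56.4 and 35.7 CPM in VM (-5.94 ± 0.84 SE, adjusted p = 8.78e-05), and CYP26A1 had no count in AM and 3.46, 1.88 and 1.88 CPM in VM, at least 3.08-fold lower. The synthesising enzyme ALDH1A3 fell by 2.08 on the log2 scale. ALDH1A2 fell by 1.37, but lost the call whichever of the 6 libraries was left out (adjusted p up to 0.129).

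Promoter windows from RefSeq (GRCh38.p14, 250 bases before to 50 after a start) were found for 12418 of 17639 tested genes with a symbol, 18036 windows in all. They were searched on both strands for 2 copies in a row of the retinoic acid receptor half-site (AGGTCA, its variant AGTTCA, and with the same change at the start GGGTCA and likewise GGTTCA, in any combination), spaced by 1, 2 or 5 bases. The repeat spaced by 5 was in 12 windows (0.0665%), 1 of them among the 1222 windows of genes called lower (0.0818%). That window belongs to CYP26A1, at the second start RefSeq lists for it, and is shown for that reason. The repeat begins 90 bases before the start, its half-sites read AGTTCA on the opposite strand, and the capitals mark the half-sites with their spacer (chr10:93073643-93073942, plus strand).
CYP26A1: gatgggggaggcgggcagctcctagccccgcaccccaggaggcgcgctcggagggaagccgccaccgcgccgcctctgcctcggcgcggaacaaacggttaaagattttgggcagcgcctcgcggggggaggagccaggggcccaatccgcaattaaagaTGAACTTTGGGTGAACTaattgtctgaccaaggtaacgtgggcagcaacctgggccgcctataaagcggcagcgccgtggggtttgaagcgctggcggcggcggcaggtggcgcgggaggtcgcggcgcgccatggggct
The 1516 windows of genes called higher held no such repeat at any of the 3 spacings, in windows that cover only 300 bases. The letters AGGCCT, the core of the motif of the ZFX and ZNF711 family, were in 10.5% of all windows, 8.44% of those of genes called higher and 8.84% of those called lower. Such matches describe letters in these windows and were not tested.

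Of 22 HOX genes 8 could be tested, of which 6 were called higher in AM. Beside HOXA3, HOXA2 was at 3.89, 4.03 and 3.90 CPM in AM with no count in VM, at least 5.31-fold higher. HOXB4 was at 9.41, 9.06 and 6.77 CPM in AM and 1.24, 2.07 and 2.72 CPM in VM (2.04 ± 0.43 SE, adjusted p = 0.00224), and HOXB2 rose by 1.78. HOXB1 rose by 2.91 and was not called without AM replicate 3 or VM replicate 1 or 2 (up to 0.0597). Of the 22 genes, 13 had no count in VM ZNF711 and 5 had none in AM ZNF711.

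Endoderm and liver genes formed the list with the lowest median, -2.89, with 12 of 26 called lower, or 19 lower and 1 higher with the block. AFP, fetal albumin of the yolk sac and liver, was at 406, 397 and 899 CPM in AM and 5320, 10500 and 15300 CPM in VM (-4.20 ± 1.12 SE, adjusted p = 0.0201). SERPINA1, which encodes alpha-1-antitrypsin, was at 45.6, 49.5 and 102 CPM in AM and 1890, 2940 and 4340 CPM in VM (-5.54 ± 1.03 SE, adjusted p = 0.00185). APOB, the lipoprotein scaffold, was at 311, 137 and 423 CPM against 3400, 4650 and 5880 CPM (-4 ± 1 SE, adjusted p = 0.0142). AFP was not called without AM replicate 1 or 2 or VM replicate 3 (up to 0.0897), and APOB was not called without AM replicate 1 or 2 (up to 0.0727). The member called higher with the block was FOXA1, a pioneer factor of gut and other endoderm, at 38.5, 34.6 and 37.7 CPM in AM and 4.20, 9.22 and 15.3 CPM in VM (1.94 ± 0.85 SE, adjusted p = 0.152, or 0.0206 with the block). In TRAC the list had nearly the same median, -2.99. The 12 calls fell to 6 without AM replicate 1 and to 6 without AM replicate 2, and to 8 without VM replicate 3. Over all tested genes the calls lower in AM fell from 1138 to 663, 576 and 577 in these fits. RFX6, a factor of foregut and pancreas, went with AM, at 24.3, 14.7 and 12.8 CPM and at most 0.209 CPM in VM (adjusted p = 5.38e-07).

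Of 16 endothelial genes 4 were called higher and 1 lower (median 0.42). ENG, a TGF-beta coreceptor, was at 43.6, 58.2 and 50 CPM in AM and 24.7, 26.0 and 22.8 CPM in VM (1.05 ± 0.17 SE, adjusted p = 0.000209). It was the only one of these 5 whose call held in each fit without 1 library, and 1 endothelial gene was called higher without AM replicate 2, AM replicate 3 or VM replicate 2, and 2 without VM replicate 3. Of 4 genes of sinusoidal and lymphatic endothelium 3 were called higher, with a median of 1.47. FLT4, the VEGF receptor of lymphatic vessels, rose by 1.28 (adjusted p = 0.00034). The scavenger receptors STAB1 (0.99) and MRC1 (1.66) were not called without AM replicate 1 or 3 or VM replicate 2, nor STAB1 without VM replicate 3 and MRC1 without VM replicate 1 (up to 0.152 and 0.157). PDGFRA, a receptor of mesoderm and fibroblasts, was at 442, 469 and 381 CPM in AM and 51.7, 64.9 and 75.9 CPM in VM (2.74 ± 0.20 SE, adjusted p = 7.1e-10). FN1, which encodes fibronectin, was at 4480 to 4600 CPM in AM and 8720 to 11400 CPM in VM (-1.08, adjusted p = 0.00514). Of 16 fibroblast genes 2 were called in each direction (6.81% higher and 6.42% lower over all tested genes), with a median of 0.00. The other 2 were TWIST1 (1.02), not called without AM replicate 2 or 3 or VM replicate 1, 2 or 3 (up to 0.106), and LOX (-2.92), not called without AM replicate 1, 2 or 3 or VM replicate 2 or 3 (up to 0.124).

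Of 10 smooth muscle genes 3 were called higher and 2 lower. ACTA2, smooth muscle actin, was at 482, 586 and 662 CPM in AM and 165, 208 and 222 CPM in VM (1.54 ± 0.22 SE, adjusted p = 4.54e-05). LMOD1, an actin nucleator, rose by 1.03 and was not called without VM replicate 3 (adjusted p = 0.0516). CSPG4, the pericyte proteoglycan, fell by 1.14. SMTN, a smooth muscle filament protein, was called lower (-0.89), but kept the call without a library only where that was VM replicate 2 (up to 0.0988 in the others). In the epicardial list BNC1 alone of 10 tested genes was called (1.04, adjusted p = 0.0169), and not without AM replicate 1 or VM replicate 2 or 3 (up to 0.0981). The list median was 0.78, against 1.47 in TRAC, where 6 genes were called higher. The interaction with TRAC was positive for 1 of 10 genes, and no member was called in it. In the neural list of 9 tested genes, SOX10 and PAX3, factors of neural crest, were called lower in AM and the others were not called. The list median was -0.42, against 1.12 in TRAC, where 3 genes were called higher and 1 lower. The interaction with TRAC was positive for 1 of 9 genes, and no member was called in it. SOX10 was at 0, 1.01 and 0.26 CPM in AM and 18.1, 32.2 and 14.4 CPM in VM (-5.56 ± 0.91 SE, adjusted p = 0.000214). PAX3 was at most 0.403 CPM in AM and 16.3, 9.97 and 9.82 CPM in VM (adjusted p = 0.000126).

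NELL1, the paralogue of NELL2, was at 41.5, 59.8 and 38.3 CPM in AM and 4.45, 4.51 and 6.27 CPM in VM (3.19 ± 0.49 SE, adjusted p = 0.000141). SLIT2, a ligand of the ROBO receptors, was at 790, 1100 and 837 CPM in AM and 184, 173 and 163 CPM in VM (2.39 ± 0.20 SE, adjusted p = 1.07e-08). The receptors had the opposite direction, ROBO2 at 33.5, 30.0 and 33.8 CPM against 61.1, 63.0 and 61.9 CPM (-0.93, adjusted p = 0.00386) and ROBO1 by -0.46, not called without AM replicate 3 or VM replicate 1 (up to 0.0818). Of 8 genes in that list, 3 were called higher and 2 lower.

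In the BMP pathway 3 of 15 genes were called higher and 2 lower, with a median of 0.14. The ligand BMP4 was at 173, 241 and 212 CPM in AM and 36.8, 30.5 and 40.7 CPM in VM (2.53 ± 0.35 SE, adjusted p = 5.78e-05), and BMP7 rose by 1.47. BMP2, the ligand of the atrioventricular canal, was at 55 to 73.6 CPM in AM and 81.4 to 200 CPM in VM and was not called (adjusted p = 0.108). The antagonists NOG and GREM1 were called lower, NOG not without AM replicate 1, 2 or 3 or VM replicate 2 (up to 0.0714) and GREM1 not without AM replicate 1 or 2 or VM replicate 2 or 3 (up to 0.101). In the WNT pathway 3 of 21 genes were called higher and 4 lower, with a median of -0.39. The secreted inhibitors SFRP1 and FRZB rose by 1.70 and 1.92 and the feedback inhibitor NKD1 by 1.08. SFRP2, of the same inhibitor family, was at 0.409, 0 and 1.30 CPM in AM and 41.3, 37.1 and 18.6 CPM in VM, and was not called without AM replicate 1 or 2 (up to 0.0571). RSPO3, a WNT enhancer, fell by 1.43 and the ligand WNT5B by 1.86. Of 14 Notch pathway genes 2 were called higher and 1 lower, or 2 and 4 with the block, with a median of -0.30. The ligand JAG1 rose by 0.91 and the endothelial receptor NOTCH4 by 1.40. HES4, a target of the pathway, was called lower (-1.33), and was not called without AM replicate 1 or 3 or VM replicate 2 or 3 (up to 0.111). In cardiac jelly, the matrix between muscle and endocardium, 2 of 7 genes were called lower and the others were not called, with a median of 0.02. The hyaluronan synthase HAS2 fell by 1.22 and the hyaluronan receptor CD44 by 2.37. The list summed to 2480 to 2810 CPM in AM and 1980 to 2440 CPM in VM.

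Of 21 genes of cell division, 8 were called lower in AM and 13 were not called, with a median of -0.62. TOP2A, the topoisomerase of dividing cells, was at 66.3, 58.0 and 76.2 CPM in AM and 133, 175 and 115 CPM in VM (-1.08 ± 0.20 SE, adjusted p = 0.000695). CENPF, a kinetochore protein, was at 59.9, 59.6 and 71.3 CPM against 143, 142 and 103 CPM (-1.02 ± 0.19 SE, adjusted p = 0.000636), and TYMS, of thymidylate synthesis, fell by 0.99. MKI67 was at 130 to 135 CPM in AM and 138 to 217 CPM in VM and was not called (adjusted p = 0.124). In TRAC the median was -0.01 with 2 genes called lower, and the interaction was negative for 20 of 21 genes. Of these, CENPF was called against the mean of 3 with the block (adjusted p = 0.0461). The count of 8 fell to 4 without AM replicate 1 and to 5 without VM replicate 2.

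Of 8 pluripotency genes 4 were called lower in AM. SALL4, a zinc finger factor also present in yolk sac endoderm, was at 70.0, 58.8 and 60.9 CPM in AM and 135, 102 and 101 CPM in VM (-0.83 ± 0.18 SE, adjusted p = 0.00273). LIN28A, an inhibitor of let-7 processing, was at 79.4, 101 and 119 CPM in AM and 257, 329 and 255 CPM in VM (-1.49 ± 0.41 SE, adjusted p = 0.0233), and was not called without AM replicate 1 or 2 or VM replicate 2 or 3 (up to 0.1). The count of 4 fell to 2 without AM replicate 1 or 3 and to 1 without AM replicate 2, VM replicate 2 or VM replicate 3. POU5F1, the core factor of the stem cell state, was low, at 1.61 to 2.66 CPM in AM and 4.70 to 9.61 CPM in VM.

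Of 19 genes of fatty acid use 3 were called higher and 1 lower, with a median of 0.39. The mitochondrial coactivator PPARGC1A was at 129, 152 and 142 CPM in AM and 34.4, 53.6 and 53.1 CPM in VM (1.58 ± 0.29 SE, adjusted p = 0.000904), ESRRG rose by 1.37, and CPT1A, the gate of fatty acid import, by 1.51. PPARA, a nuclear receptor of fatty acid genes, was the gene called lower (-0.74), and was not called without AM replicate 1 or 3 or VM replicate 2 or 3 (up to 0.147). Of 18 glycolysis and hypoxia genes, 7 were called lower and 1 higher, with a median of -0.56. VEGFA, the hypoxia-induced growth factor, was at 329, 266 and 297 CPM in AM and 571, 444 and 493 CPM in VM (-0.76 ± 0.14 SE, adjusted p = 0.000682). LDHA, lactate dehydrogenase, fell by 0.78 and was not called without AM replicate 1 or VM replicate 2 or 3 (up to 0.0679). In this list 1 gene was called lower without AM replicate 1, VM replicate 2 or VM replicate 3, and 3 without AM replicate 3. Of 22 respiratory chain genes 1 was called in each direction, or 6 higher and 1 lower with the block, with a median of 0.27. The block called 11.4% of all tested genes higher and 12% lower. Mitochondrially encoded genes took 2.72% to 3.19% of counts in AM ZNF711 and 2.15% to 2.49% in VM ZNF711.

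Against the mean of TRAC, LHX2 and ZNF503, 5 genes were called in the interaction (0.0282%), 2 more positive (0.0113%) and 3 more negative (0.0169%) in ZNF711-targeted cells. NELL2 led with -3.04 (adjusted p = 1.15e-05), and it was called in each of the 24 fits without 1 library (adjusted p up to 0.00024). NR2F2-AS1, the long noncoding RNA that starts beside NR2F2 on the opposite strand, was at 58.7, 50.7 and 46.3 CPM in AM and 9.15, 4.89 and 4.81 CPM in VM, above the 0.745 to 2.46 CPM of VM in the other 3 genotypes (interaction -2.26 ± 0.33 SE, adjusted p = 0.00311). Because strand use in counting was not stated, its reads and those of NR2F2 where the 2 overlap cannot be told apart. LIN28B, the paralogue of LIN28A, was at 51.5, 58.2 and 58.0 CPM in AM and 62.1, 66.2 and 72.9 CPM in VM, against log2 fold changes of 0.64, 0.67 and 0.88 in TRAC, LHX2 and ZNF503 (interaction -0.99 ± 0.18 SE, adjusted p = 0.0481). RBPMS2, an RNA-binding protein of heart and smooth muscle, was at 170, 204 and 169 CPM in AM and 102, 102 and 101 CPM in VM, against log2 fold changes of -0.19, -0.34 and -0.45 in TRAC, LHX2 and ZNF503 (interaction 1.16 ± 0.20 SE, adjusted p = 0.0261). C10orf71, a heart and skeletal muscle gene, was at 25.4, 25.6 and 16.7 CPM in AM and 13.6, 17.5 and 12.7 CPM in VM (interaction 1.68 ± 0.30 SE, adjusted p = 0.0356). The other calls were less stable. NR2F2-AS1 was not called without VM ZNF711 replicate 1 (adjusted p up to 0.0736), and of 24 fits without 1 library RBPMS2 lost the call in 9, C10orf71 in 15 and LIN28B in 19, each of them without AM ZNF711 replicate 1 or 2 or any VM ZNF711 library (up to 0.184, 0.185 and 0.184).

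With the replicate block, 416 genes were called against the mean of 3 (2.35%), 259 more positive (1.46%) and 157 more negative (0.886%), and 5 against TRAC (0.0282%). The 5 were NELL2, NR2F2-AS1, CADM1, ADPRHL1 and MAPK4, of which the last 3 were named after their values were seen. CADM1, an adhesion molecule, was at 75.9 to 106 CPM in AM and 109 to 122 CPM in VM, against 124 to 158 and 67.3 to 78.8 CPM in TRAC (interaction -1.19, adjusted p = 0.0151 with the block). ADPRHL1, a muscle-specific hydrolase-like protein, was at 178, 221 and 169 CPM in AM and 88.3, 122 and 121 CPM in VM (interaction 1.05, adjusted p = 0.0321 with the block). MAPK4, an atypical MAP kinase, was at 24.7 to 32.0 CPM in AM and 35.1 to 52.3 CPM in VM, against 13.7 to 16.2 and 44.9 to 91.6 CPM in TRAC (interaction 1.35, adjusted p = 0.034 with the block). Of the 1218 genes called in ZNF711-targeted cells and not in TRAC, the edgeR fit without the block called none in the interaction. A block within each condition called 132 of them, where it called 2.54% of all tested genes (with the mean of 3, 8.30%, of which 3.85% more negative). The 1218 were chosen from the same libraries for a call in ZNF711 and none in TRAC. Their share therefore cannot be set against that of all tested genes. At unadjusted p below 0.05 the interaction with TRAC held 1135 genes, and DESeq2 called 10. Without VM TRAC replicate 3 it held 28 calls, 11 positive and 17 negative, and without VM replicate 3 of all 3 other genotypes, left out after the data were seen, 531.

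The AGGCCT letters were in 11.4% of the 342 promoter windows of genes more positive in the blocked interaction with the mean of 3 and in 8.29% of the 205 windows of genes more negative, against 10.5% of all windows. RBPMS2 is 1 of the 5 genes called without the block and is shown because its window (chr15:64774694-64774993, minus strand) holds the letters, which begin 7 bases before the start and are in capitals.
RBPMS2: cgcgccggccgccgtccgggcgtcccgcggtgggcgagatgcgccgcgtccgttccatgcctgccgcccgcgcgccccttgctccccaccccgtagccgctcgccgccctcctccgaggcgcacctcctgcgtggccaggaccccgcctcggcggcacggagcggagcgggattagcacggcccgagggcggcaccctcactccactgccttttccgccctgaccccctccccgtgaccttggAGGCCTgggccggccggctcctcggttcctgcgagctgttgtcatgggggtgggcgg
Whether ZNF711 binds there was not measured in these data.

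**Figure D5:**
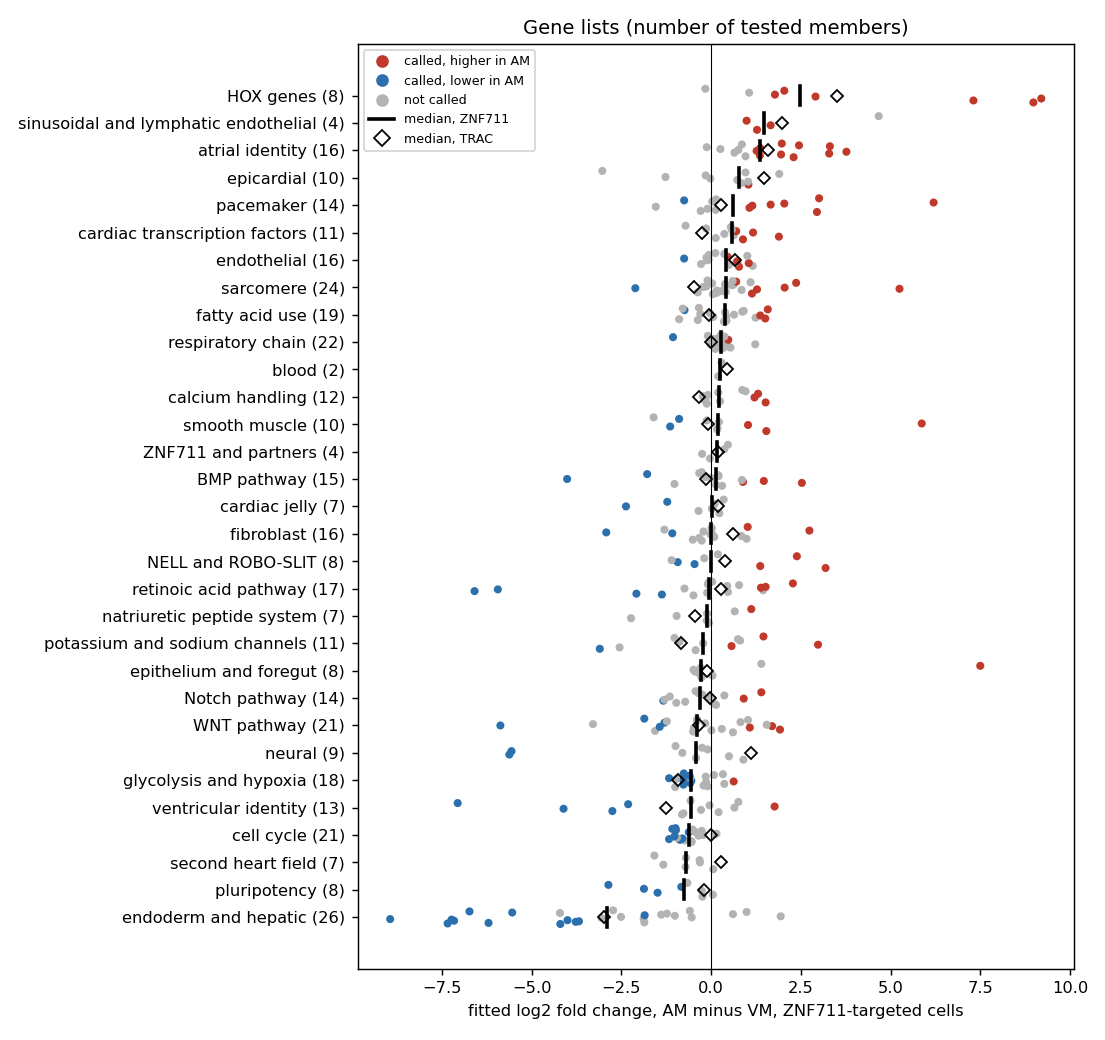
Fitted log2 fold change (AM minus VM) in ZNF711-targeted cells of the tested members of 31 gene lists, with called genes in red (higher) or blue (lower) and others in grey, the list median as a black bar and the median in TRAC as an open diamond. The HOX list has the highest median (2.48) and the endoderm and hepatic list the lowest (-2.89), and the sarcomere (0.41 against -0.48) and cell cycle (-0.62 against -0.01) medians are shown with those of TRAC.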

How the data were processed

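The values were whole-number read counts per gene and library, as the authors deposited them. Per the submitters' processing notes, reads were aligned with STAR to GRCh38. The counting program, annotation and strand setting were not given in the sources used here, and the labels name both polyA RNA and ribosomal depletion.

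Genes kept by filterByExpr were fitted with edgeR 4.0.16 (quasi-likelihood, robust, TMM scaling) with 1 mean per group over 24 libraries, with Benjamini-Hochberg adjustment across the 17724 genes. SE is the log2 fold change divided by the square root of F. The detection floor was 3 counts per library, which covers counting error only. The biological coefficient of variation came to 25% without and 16.9% with the block. The fit was tested on simulated data.

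Same-numbered AM and VM ZNF711 libraries deviated from their group means together (correlation 0.27 to 0.52 over 11428 genes, and 0.15 to 0.57 over the pairs of the interaction with TRAC), so the number in the titles was treated as a pairing. Chi-square tests between replicates showed none within sampling noise.

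Genes named by size were the 12 called genes changed most in each direction that did not overlap and had 50 or more counts in each library of the group where they were higher, and up to 8 per direction in each interaction. Markers, ZNF711 and members of 31 lists (435 entries, 398 tested) were named too, and some genes that these rules pick are not reported here. The comparison, markers and lists were chosen with earlier results of these data known.

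Alternatives were relative log expression or library-size scaling, no filter or a filter of 1 CPM in 3 libraries, a replicate block across or within conditions, DESeq2 1.42.0, a fit of the compared groups alone, and leaving out each library. Leaving out VM replicate 3 of TRAC, LHX2 and ZNF503 was added after seeing the data.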

Additional observations from a re-analysis of the deposited data

Results flagged for a closer look

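The protocol effect differed between ZNF711-targeted cells and other genotypes, by a test of the difference itself, in these genes. NELL2 differed by -3.52 in log2 against TRAC and by -3.04 against the mean of TRAC, LHX2 and ZNF503. Against that mean NR2F2-AS1 differed by -2.26, LIN28B by -0.99, RBPMS2 by 1.16 and C10orf71 by 1.68. Of 24 fits without 1 library, LIN28B lost this call in 19, C10orf71 in 15, RBPMS2 in 9 and NR2F2-AS1 in 1. With the replicate block, NR2F2-AS1 differed from TRAC by -2.43, CADM1 by -1.19, MAPK4 by 1.35 and ADPRHL1 by 1.05. In the edgeR fit without the block none of these was called against TRAC (adjusted p = 0.0531, 0.323, 0.389 and 0.458). CADM1, MAPK4 and ADPRHL1 were named after their values were seen. In the VM ZNF711 libraries endoderm markers summed to 16700 to 41400 CPM and in VM TRAC to 4950 to 39600 CPM, and the part of that RNA in these differences was not tested.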

How the results depend on the processing

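Between the protocols, 2345 genes were called, 4150 with the replicate block and 4923 with a replicate block within each condition. Leaving out 1 ZNF711 library gave 1331 to 2125 calls. Leaving out 1 library of another genotype gave 2149 to 2751, the highest without VM TRAC replicate 3. Without VM replicate 3 of the 3 other genotypes 3313 genes were called, in a fit of the compared groups alone 2989, and with DESeq2 2851. Scaling to library size alone raised the share of calls that were higher from 51.5% to 57.9%. Against TRAC the 1 interaction call became 209 with no filter, 2 with a filter at 1 CPM in 3 libraries, 5 with the replicate block, 450 with the block within each condition, 10 with DESeq2, 531 without VM replicate 3 of the 3 other genotypes, and 1 to 28 without 1 library. Against the mean of 3 the 5 calls became 564 with no filter, 416 with the replicate block, 1471 with the block within each condition, 277 with DESeq2, 1543 without those 3 libraries, and 1 to 328 without 1 library, the highest without VM TRAC replicate 3. The cause of these shifts was not tested. For that contrast a fit of the compared groups alone is the fit over all 24 libraries.

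NPPA, which was not called, went from -0.12 to 0.01 with the replicate block, to 0.01 with the block within each condition, and from -0.34 to 0.10 without 1 library. Without 1 library the median of the potassium and sodium channels ran from -0.36 to 0.11, of the natriuretic peptide system from -0.28 to 0.04, and of the BMP pathway from -0.03 to 0.28. Over 169 genes named or listed, settings other than leaving out a library kept direction and call in 1467 values, gained a call in 38 and lost one in 12. Leaving out 1 ZNF711 library lost the call in 212 values, over 59 of the genes. Libraries of 3855267 to 5618223 counts limit genes near the floor of 3 counts, such as MYL2 and CYP26A1.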
